A study of Mus musculus with 24 samples.

Results

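Sox9 and the 9 genes described with it are genes that mature astrocytes of the hippocampus express strongly or that mark them. They were taken by name from the table of deposited read counts, in which each of Sox9, Gfap, Aqp4, Aldh1l1, Slc1a2, Slc1a3, Gja1, S100b, Aldoc and Glul had 1 Ensembl identifier, so that 10 of 55471 genes were included. All 10 passed the filter on low counts, with 675 to 98222 counts in a mouse. The set was proposed with results of these mice in view, and which values led to it is not recorded. For Sox9, the gene the set is named for, the p-values are therefore a description and not independent evidence.

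The RNA came from the whole hippocampus of 12 adult female C57BL/6 mice aged 3 to 6 months, in 4 groups of 3. CBP-ifKOs carried floxed Crebbp alleles and the CaMKIIα-creERT2 transgene, a tamoxifen-inducible Cre recombinase driven in excitatory neurons of the forebrain, and recombination leaves a truncated CBP without its acetyltransferase domain. Control littermates lacked creERT2, so that the transgene and the Crebbp deletion cannot be told apart, and both genotypes received tamoxifen in 5 intragastric administrations at 20 mg/ml. Mice of each genotype lived either in a standard cage (SC) or in environmental enrichment (EE), a large box with running wheels, toys and tubing. The questions were what the loss of neuronal CBP changed in each housing and what EE changed in each genotype. Since Cre was driven in neurons, the astrocytes of CBP-ifKOs were not the targeted cells. A hippocampal extract holds all cell types. In it fewer astrocytes, less RNA per astrocyte and a change in any share of these transcripts from other cells cannot be told apart.

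Libraries held 26874015 to 27971488 counts in control mice and 28582210 to 37448388 in CBP-ifKOs. CBP-ifKO libraries held even counts throughout, whereas 54.0 to 55.1% of the counts above 0 in controls were odd, a feature of the table that follows the genotype. Despite their larger totals, CBP-ifKO libraries had counts above 0 for fewer genes, 23843 to 25225 against 25981 to 26608 in controls. Whether the totals reflect depth alike in both genotypes was not tested. Levels are given in CPM (counts-per-million), the count of a gene scaled by the total of its library after adjustment by a factor for library composition (TMM). Crebbp itself was at 69.6 to 81.9 CPM in control mice and 44.5 to 51.6 in CBP-ifKOs, with a log2 fold change of −0.58 in SC and −0.64 in EE. Replicate 1 of the control EE mice stood apart in its choroid plexus genes, whose summed level was 1273.5 CPM against 36.1 to 64.4 in the other 11 mice. Calls of the 10 genes that are lost or gained without this mouse are given with that value.

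Astrocytes clear glutamate and potassium from around synapses, couple to each other through gap junctions, regulate water at their endfeet on blood vessels and supply neurons with glutamine and metabolic fuel. SOX9 is a transcription factor of the SRY-box family that drives the switch from neurogenesis to gliogenesis in the embryo and stays on in adult astrocytes, where its nuclear protein is used as a marker. The other genes serve the mature cell: the glutamate transporters Slc1a2 and Slc1a3, glutamine synthetase (Glul), the gap junction protein connexin 43 (Gja1), the water channel Aqp4, the filament protein Gfap, the calcium-binding protein S100b, and the metabolic enzymes Aldoc and Aldh1l1. CBP, the product of Crebbp, is a lysine acetyltransferase and transcriptional coactivator.

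In the GRCm38 assembly, Sox9 lies on the plus strand at chr11:112782224-112787760, on the same chromosome as Aldoc (chr11:78322968-78327781, plus strand) and Gfap (chr11:102887336-102900912, minus strand). The glutamate handling genes are Slc1a2 at chr2:102658659-102790784 and Glul at chr1:153899944-153909723, both on the plus strand, and Slc1a3 at chr15:8634124-8710764 on the minus strand. Gja1 (chr10:56377330-56402513) and S100b (chr10:76253853-76261159) share a chromosome and the plus strand, Aldh1l1 lies at chr6:90486427-90600203 on the plus strand. Exons of Aldh1l1 overlap the antisense gene Gm15756 over 499 bases. Of the 50-base stretches of its exons, 10.02% also occur in exons of another gene, as do 12.6% of those of Glul, mostly in the pseudogene Glns-ps1, and 1.31% or less of those of the other 8 genes. The strand setting of the counting is not given in the sources used here, so levels of Aldh1l1 and Glul are the least certain of the 10.

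The promoters of 8 of the 10 genes, all but Sox9 and Aqp4, were found in RefSeq's GRCm38.p6 annotation. The 250 bases before the RefSeq start are shown for 3 genes that were lower in CBP-ifKOs over both housings (Glul, Slc1a3 and S100b) and for Gja1, whose levels separated the housings. The windows are chr1:153899679-153899928 (plus strand) for Glul, chr15:8710808-8711057 (minus strand) for Slc1a3, chr10:76253586-76253835 (plus strand) for S100b and chr10:56377050-56377299 (plus strand) for Gja1. Each is written 5′ to 3′ on the strand of the gene, and capitals mark matches, on either strand, to the letters ACAAT (core of SOX sites), TTGGCA (a part of nuclear factor I sites), TGACG (a part of the cAMP response element), TATAAA (the core promoter element of many regulated genes) and GGGCGG (a site of Sp family factors).
Glul: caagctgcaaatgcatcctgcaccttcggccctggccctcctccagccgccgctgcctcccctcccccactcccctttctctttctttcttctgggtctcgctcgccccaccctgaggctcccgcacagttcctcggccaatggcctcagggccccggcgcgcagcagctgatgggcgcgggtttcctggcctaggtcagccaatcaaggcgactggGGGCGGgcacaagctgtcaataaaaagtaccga
Slc1a3: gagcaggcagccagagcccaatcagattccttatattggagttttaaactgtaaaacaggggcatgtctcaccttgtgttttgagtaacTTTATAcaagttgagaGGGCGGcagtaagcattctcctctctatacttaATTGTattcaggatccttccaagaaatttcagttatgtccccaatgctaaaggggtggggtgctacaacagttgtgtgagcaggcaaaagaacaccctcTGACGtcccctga
S100b: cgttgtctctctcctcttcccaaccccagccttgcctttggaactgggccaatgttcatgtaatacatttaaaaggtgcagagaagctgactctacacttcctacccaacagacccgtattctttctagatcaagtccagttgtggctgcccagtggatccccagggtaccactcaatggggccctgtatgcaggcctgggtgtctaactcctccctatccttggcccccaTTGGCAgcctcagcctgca
Gja1: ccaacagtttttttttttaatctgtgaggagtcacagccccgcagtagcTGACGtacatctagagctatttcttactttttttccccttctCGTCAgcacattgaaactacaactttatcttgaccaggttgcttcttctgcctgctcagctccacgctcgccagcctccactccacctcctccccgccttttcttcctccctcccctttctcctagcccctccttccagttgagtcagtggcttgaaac

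The Slc1a3 window held 4 of the 5 motifs, with ACAAT on the reverse strand from position −112, TGACG from −13, TATAAA on the reverse strand from −161 and GGGCGG from −145, each position being that of the leftmost base counted back from the RefSeq start. TGACG also stood in the Gja1 window, from −201 and, on the reverse strand, from −159. S100b had 1 TTGGCA from −19 and Glul 1 GGGCGG from −33. No matches overlapped. Among 32851 mouse promoters, searched over the same 250 bases before the start, 27.7% held ACAAT, 12.3% TTGGCA, 17.8% TGACG, 12.4% TATAAA and 32.7% GGGCGG. The matches describe letters in these windows and not bound sites.

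Levels between genes were compared per length, as counts per kilobase of exon scaled to the same sum in every library, over all 12 mice. Glul stood highest at 1206 ± 73.3 (SD, n = 12), followed by Aldoc at 908 ± 43.4 and Slc1a2 at 815 ± 69.3. Slc1a3 (329.8 ± 36.9), S100b (321 ± 16.3) and Gfap (283 ± 23.5) formed the middle of the order. Aqp4 (97.3 ± 8.34), Gja1 (91.8 ± 7.21), Aldh1l1 (38.7 ± 4.07) and Sox9 (26.8 ± 4.99) stood lowest, and the span from Glul to Sox9 was 45.1-fold. On this scale the ranges of neighbours did not overlap between Glul and Aldoc, Slc1a2 and Slc1a3, Gfap and Aqp4, or Gja1 and Aldh1l1. They overlapped between Aldoc and Slc1a2 (the first was higher in 10 of 12 mice), Slc1a3 and S100b (8 of 12), S100b and Gfap (11 of 12), and Aqp4 and Gja1 (10 of 12), and also between Aldh1l1 and Sox9, although Aldh1l1 was the higher of these in all 12 mice. Counts of all 10 astrocyte markers were present in every library.

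Sox9 was the member that differed most with housing, and it was lower in CBP-ifKOs in both housings. Its level was 31.9, 38.95 and 33.4 CPM in the control SC mice and 28.5, 27.2 and 30.9 in the CBP-ifKO SC mice. In EE it was 27.6, 26.9 and 24.7 CPM in controls and 21.96, 21.1 and 22.2 in CBP-ifKOs. Within each housing every CBP-ifKO lay below every control, and within each genotype every EE mouse lay below every SC mouse. On the per-length scale, which has no TMM factor, the genotypes overlapped in SC and not in EE. The group means ± SD (n = 3) were 34.7 ± 3.71 CPM in control SC, 28.9 ± 1.89 in CBP-ifKO SC, 26.4 ± 1.51 in control EE and 21.8 ± 0.589 in CBP-ifKO EE. The CBP-ifKO mean was thus 83.1% of the control mean in SC and 82.4% in EE, and the EE mean was 75.9% of the SC mean in controls and 75.3% in CBP-ifKOs.

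By edgeR's quasi-likelihood test with Benjamini-Hochberg adjustment over all genes tested, Sox9 did not pass an adjusted p of 0.05 between genotypes within either housing. The log2 fold change of CBP-ifKOs against control littermates was −0.27 ± 0.086 in SC (SE, adjusted p = 0.0982) and −0.27 ± 0.075 in EE (adjusted p = 0.0692). With no filter on low counts it passed in both, at adjusted p-values of 0.0291 in SC and 0.0372 in EE. Over both housings, in a fit to all 12 mice, the mean difference was −0.27 ± 0.057 and passed (adjusted p = 0.00389). EE against SC gave −0.40 ± 0.081 in controls (unadjusted p = 0.000174, adjusted p = 0.448) and −0.41 ± 0.080 in CBP-ifKOs (unadjusted p = 0.000117, adjusted p = 0.122), neither of which passed. These were the 6th and the 17th smallest p-values of 18251 genes. With no filter on low counts or by DESeq2, Sox9 was called in both, at adjusted p-values of 0.00190 and 0.0202 in controls and 0.000635 and 0.00407 in CBP-ifKOs. Averaged over the genotypes, the housing difference was −0.40 ± 0.057, the 5th smallest p-value, with an adjusted p of 0.0103. Without control EE replicate 1 this value was −0.42 (adjusted p = 0.0121). The genotype difference in EE minus that in SC was −0.01 ± 0.11 (unadjusted p = 0.906), which did not pass and does not show that the difference was equal in both housings.

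**Figure D1:**
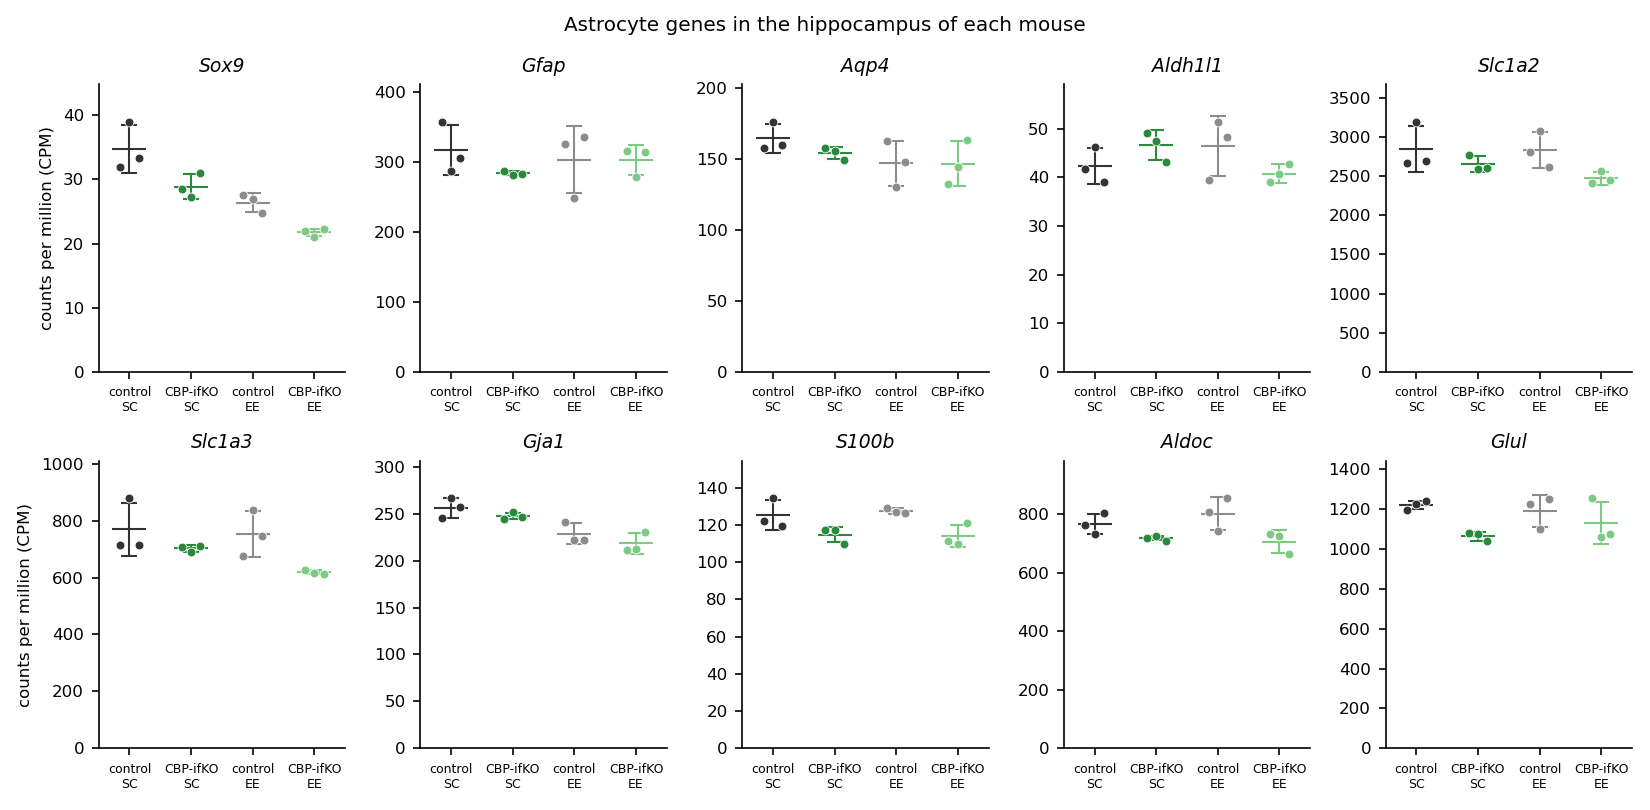
Levels in CPM (vertical axes, linear and starting at 0) of each of the 10 genes in the 12 mice, 1 panel per gene. Each point is 1 mouse, the line is the group mean and the bars are ± 1 SD (n = 3). Sox9 steps down from 34.7 CPM in control SC to 21.8 in CBP-ifKO EE, while the 4 groups of Gfap and Aqp4 lie close together.

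Slc1a3 encodes one of the glial glutamate transporters, enriched in radial glia and astrocytes, and Slc1a2 encodes the transporter that performs most glutamate uptake in the adult forebrain. Slc1a3 was at 714, 878 and 716 CPM in control SC mice, 709, 689.9 and 710.0 in CBP-ifKO SC mice, 677, 838 and 744 in control EE mice and 626, 616 and 613 in CBP-ifKO EE mice. Every CBP-ifKO lay below every control of its housing, by a small margin in SC, where control replicate 2 was far above the other control mice. The log2 fold change of CBP-ifKOs was −0.13 ± 0.074 in SC (adjusted p = 0.346) and −0.28 ± 0.072 in EE (adjusted p = 0.0555). Averaged over the housings it was −0.21 ± 0.056 and Slc1a3 was lower in CBP-ifKOs (adjusted p = 0.0173). The EE value was called by DESeq2 (adjusted p = 0.00277), with no filter on low counts (0.000750), in the fit to all 12 mice (0.0403), with the replicate number as a block (0.0394) and without control EE replicate 1 (0.0170).

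Slc1a2 followed Slc1a3 with smaller differences. It was at 2668, 3192 and 2689 CPM in control SC mice, 2775, 2593 and 2601 in CBP-ifKO SC mice, 2806, 3078 and 2614 in control EE mice and 2408, 2569 and 2445 in CBP-ifKO EE mice. The genotypes overlapped in SC and not in EE, and control SC replicate 2 was again the highest mouse. Fold changes on the log2 scale were −0.10 ± 0.067 in SC (adjusted p = 0.436) and −0.19 ± 0.059 in EE (adjusted p = 0.103). The mean over both housings, −0.15 ± 0.049, just passed (adjusted p = 0.0484), and it did not without control EE replicate 1 (−0.15, adjusted p = 0.0743). Housing values of both transporters were small in controls, −0.03 ± 0.079 for Slc1a3 and −0.01 ± 0.069 for Slc1a2. In CBP-ifKOs they were −0.18 ± 0.079 and −0.10 ± 0.069, with no overlap between SC and EE mice for either gene, and neither passed (adjusted p = 0.534 and 0.711).

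Glul, whose product turns glutamate into glutamine, was the only member called between genotypes within SC. Its level was 1199, 1224 and 1241 CPM in control SC mice and 1082, 1074 and 1039 in CBP-ifKO SC mice, and the groups lay well apart. In EE it was 1225, 1101 and 1250.5 CPM in controls and 1254, 1062 and 1077 in CBP-ifKOs, where the genotypes overlapped. The log2 fold change was −0.20 ± 0.045 in SC (adjusted p = 0.0271) and −0.07 ± 0.076 in EE (adjusted p = 0.680), and the difference between them, 0.12 ± 0.088, did not pass (unadjusted p = 0.190). Over both housings Glul was lower by 0.14 ± 0.044 on the log2 scale in CBP-ifKOs (adjusted p = 0.0447), a call lost in 11 of 17 alternatives and without control EE replicate 1 at an adjusted p of 0.0988. The SC call was lost in 4 of the 6 fits that left out 1 mouse, namely those without control SC replicate 3 or without any one CBP-ifKO SC mouse (adjusted p of 0.0891 to 0.130), and in the fit to all 12 mice (0.0795). Housing values were −0.03 ± 0.063 in controls and 0.09 ± 0.062 in CBP-ifKOs.

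Gja1 encodes connexin 43, the main gap junction protein of astrocytes, and was the member that separated the housings without overlap in both genotypes together. It was at 245, 266 and 257 CPM in control SC mice, 245, 251 and 246 in CBP-ifKO SC mice, 241, 222 and 222 in control EE mice and 211, 213 and 231 in CBP-ifKO EE mice. Every EE mouse lay below every SC mouse, as for 0.219% of all genes. EE against SC gave −0.16 ± 0.054 in controls (adjusted p = 0.999) and −0.18 ± 0.054 in CBP-ifKOs (adjusted p = 0.407). The mean over the genotypes was −0.17 ± 0.038 (unadjusted p = 0.000399), which did not pass after adjustment (adjusted p = 0.125). It passed by DESeq2 (adjusted p = 0.00274) and with no filter on low counts (0.0197). Between genotypes Gja1 overlapped in both housings, with −0.05 ± 0.051 in SC and −0.06 ± 0.064 in EE.

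Aqp4, the water channel of astrocyte endfeet, showed no called difference. It ranged from 157.9 to 176 CPM in control SC mice, 149 to 157.7 in CBP-ifKO SC mice, 130.5 to 162 in control EE mice and 132 to 164 in CBP-ifKO EE mice. The SC genotypes stood apart by a narrow margin, and the EE genotypes covered the same range. The genotype difference was −0.09 ± 0.058 on the log2 scale in SC and 0.01 ± 0.093 in EE. Its housing difference was −0.16 ± 0.083 in controls and −0.07 ± 0.083 in CBP-ifKOs, and the mean of both was −0.12 ± 0.059 (adjusted p = 0.556).

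Gfap, the intermediate filament protein that rises in reactive astrocytes, and S100b, a calcium-binding protein that astrocytes also secrete, are markers used for different states of the cell. Gfap ranged from 288 to 358 CPM in control SC mice, 281 to 287 in CBP-ifKO SC mice, 248 to 336 in control EE mice and 279 to 316 in CBP-ifKO EE mice. The lowest control SC mouse barely exceeded the highest CBP-ifKO SC mouse, and the EE genotypes overlapped fully. Gfap had a log2 fold change of −0.16 ± 0.071 in SC (adjusted p = 0.226), 0.01 ± 0.10 in EE (adjusted p = 0.977) and −0.08 ± 0.069 over both (adjusted p = 0.479). Without control SC replicate 2 the SC value was −0.23 and passed (adjusted p = 0.0331). Between housings Gfap had −0.06 ± 0.098 in controls and 0.09 ± 0.098 in CBP-ifKOs, neither of which passed. S100b was at 122, 134 and 119 CPM in control SC mice, 117, 117 and 110.0 in CBP-ifKO SC mice, 129, 127 and 126 in control EE mice and 112, 109.9 and 121 in CBP-ifKO EE mice. CBP-ifKOs lay below controls in each housing, with a small gap. Its genotype values were −0.13 ± 0.060 in SC (adjusted p = 0.262) and −0.15 ± 0.059 in EE (adjusted p = 0.179), and over both housings −0.14 ± 0.041, which passed (adjusted p = 0.0250) but not without control EE replicate 1 (−0.14, adjusted p = 0.0505). Housing values of S100b were 0.03 ± 0.058 in controls and −0.01 ± 0.058 in CBP-ifKOs.

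Aldoc, the aldolase isoform of astrocytes in glycolysis, was at 764, 733 and 803 CPM in control SC mice, 720.1, 724 and 710.2 in CBP-ifKO SC mice, 809, 743 and 854 in control EE mice and 733, 725 and 663 in CBP-ifKO EE mice. All 6 CBP-ifKOs lay below all 6 controls, and Aldoc was the only member of which this held (5.35% of all genes), though by a narrow margin. On the per-length scale its genotypes overlapped in both housings. Its log2 fold change was −0.09 ± 0.049 in SC (adjusted p = 0.310) and −0.17 ± 0.067 in EE (adjusted p = 0.179). The mean of both was −0.14 ± 0.041 and passed (adjusted p = 0.0288), but not without control EE replicate 1 (adjusted p = 0.0601). Its housing values were 0.06 ± 0.057 in controls and −0.02 ± 0.057 in CBP-ifKOs, and neither passed.

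Aldh1l1, an enzyme of folate metabolism used as a general astrocyte marker, was the member whose genotype values in SC and EE lay furthest apart. It was at 41.7, 46.3 and 39.1 CPM in control SC mice, 49.2, 47.5 and 43.2 in CBP-ifKO SC mice, 39.5, 51.4 and 48.4 in control EE mice and 38.96, 40.6 and 42.7 in CBP-ifKO EE mice. Control and CBP-ifKO mice overlapped in both housings. EE against SC was 0.13 ± 0.091 in controls and −0.19 ± 0.089 in CBP-ifKOs (adjusted p = 0.570), and neither passed. CBP-ifKOs differed by 0.14 ± 0.077 in SC (adjusted p = 0.343) and −0.18 ± 0.092 in EE (adjusted p = 0.315). The difference between them, −0.33 ± 0.13, was the only one of the 10 with an unadjusted p below 0.05 (0.0212), and it did not pass after adjustment (adjusted p = 0.9998).

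As a set, 1 of the 10 genes (Glul) was called between genotypes in SC, where 5.52% of all 17532 genes tested were called and 4.02% were called lower. No member was called in EE, where the background was 4.57% of 17625 genes, against 5 members at an unadjusted p below 0.05 (background 19.6%), 2 called by DESeq2 (Slc1a2 and Slc1a3) and 3 with no filter on low counts (Sox9, Slc1a2 and Slc1a3). The genotypes did not overlap, with CBP-ifKOs lower, for 7 members in SC (13.8% of all genes) and for 5 in EE (13.9%). On the per-length scale, which has no TMM factor, only Glul of these stayed apart in SC and only Sox9 and Slc1a3 in EE. Over both housings 6 of 10 were called, all lower in CBP-ifKOs (Sox9, Slc1a2, Slc1a3, S100b, Aldoc and Glul), against 16.9% of 18251 genes called in either direction and 10.3% called lower. Gfap, Aqp4, Aldh1l1 and Gja1 did not pass, with values from −0.08 to −0.02. The median log2 fold change of the members was −0.11 in SC, −0.16 in EE and −0.14 over both, and that of all genes was −0.002, 0.01 and 0.003. These 3 comparisons share their mice and are not independent of each other. When 1 mouse at a time was left out, 2 to 5 members were called over both housings. Sox9 and Slc1a3 passed in all 12 such fits, S100b in 7, Aldoc in 5, Slc1a2 in 3 and Glul in 2. The count fell to 3 or fewer without control SC replicate 2 (3), CBP-ifKO SC replicate 1 (3), 2 (3) or 3 (2), control EE replicate 1 (2), or CBP-ifKO EE replicate 2 (3) or 3 (3).

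Markers of other cell types were called lower as well. The summed level of the 10 members was 6301 to 6976 CPM in control SC mice and 5923 to 6170.3 in CBP-ifKO SC mice, and 6368 to 6566 in control EE mice and 5694 to 5852 in CBP-ifKO EE mice. For the 8 neuronal genes of the excitatory neuron list the sums were 6356 to 6808 and 5914 to 6094 CPM in SC, and 6576 to 6710.3 and 5776 to 6213 in EE, and 4 of the 8 were called lower over both housings (Neurod6, Rbfox3, Snap25 and Syt1), against 10.3% of all genes. Rbfox3, Snap25 and Syt1 are expressed by neurons in general, interneurons included. Slc17a7, the vesicular glutamate transporter gene of excitatory neurons, was not called, at 1240 ± 93.7 CPM in control SC mice and 1277 ± 53.3 in CBP-ifKO SC mice (SD, n = 3), and at 1282 ± 68.7 and 1256 ± 59.6 in EE, where CBP-ifKOs had the smaller mean. All 3 markers of oligodendrocyte precursors were called lower over both housings, as were 2 of 7 of microglia, 2 of 7 of neural stem and progenitor cells, 1 of 6 of endothelial cells and 1 of 7 tested of the choroid plexus. Of 6 interneuron genes 1 was called lower and 1 higher, and 0 of 8 of oligodendrocytes and 0 of 5 of ependymal cells were called in either direction. Since CPM are relative to the other genes of a library, the part of these changes in the values of the astrocyte genes was not tested.

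Housing called few genes anywhere. Within controls 0 of 10 members and 0% of 18251 genes were called, with 768 genes (4.21%) and 2 members (Sox9 and Gja1) at an unadjusted p below 0.05, and DESeq2 called 15 genes, Sox9 among them. Within CBP-ifKOs 0 of 10 members and 2 genes in all (0.011%) were called, 4 members had an unadjusted p below 0.05 (Sox9, Gja1, Slc1a3 and Aldh1l1), where 8.59% of all genes did, and DESeq2 called 50 genes, again with Sox9. EE mice lay below SC mice with no overlap for 2 members in controls (4.91% of all genes) and for 5 in CBP-ifKOs (Sox9, Aldh1l1, Slc1a2, Slc1a3 and Gja1, 8.17% of all genes). Averaged over the genotypes, Sox9 was 1 of 30 genes called (0.164%) and 1 of 19 called lower in EE (0.104%). Beside Sox9, Gja1 and Aqp4, the mean housing values of Gfap, Aldh1l1, Slc1a2, Slc1a3, S100b, Aldoc and Glul lay between −0.11 and 0.03. The median of the 10 was −0.03 in controls, −0.09 in CBP-ifKOs and −0.04 over both genotypes. No member and no gene was called for the interaction (0%) by edgeR or DESeq2, and with no filter 110 genes and no member were. In the main edgeR fit, 1 member and 574 genes (3.15%) had an unadjusted p below 0.05. The genotype difference in EE minus that in SC was 0.16 ± 0.14 for Gfap, 0.09 ± 0.12 for Aqp4, −0.15 ± 0.11 for Slc1a3, −0.09 ± 0.098 for Slc1a2, −0.09 ± 0.081 for Aldoc, −0.03 ± 0.082 for S100b and −0.02 ± 0.077 for Gja1. Housing and genotype comparisons share groups of mice, so that their values stand side by side and not as separate evidence.

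**Figure D2:**
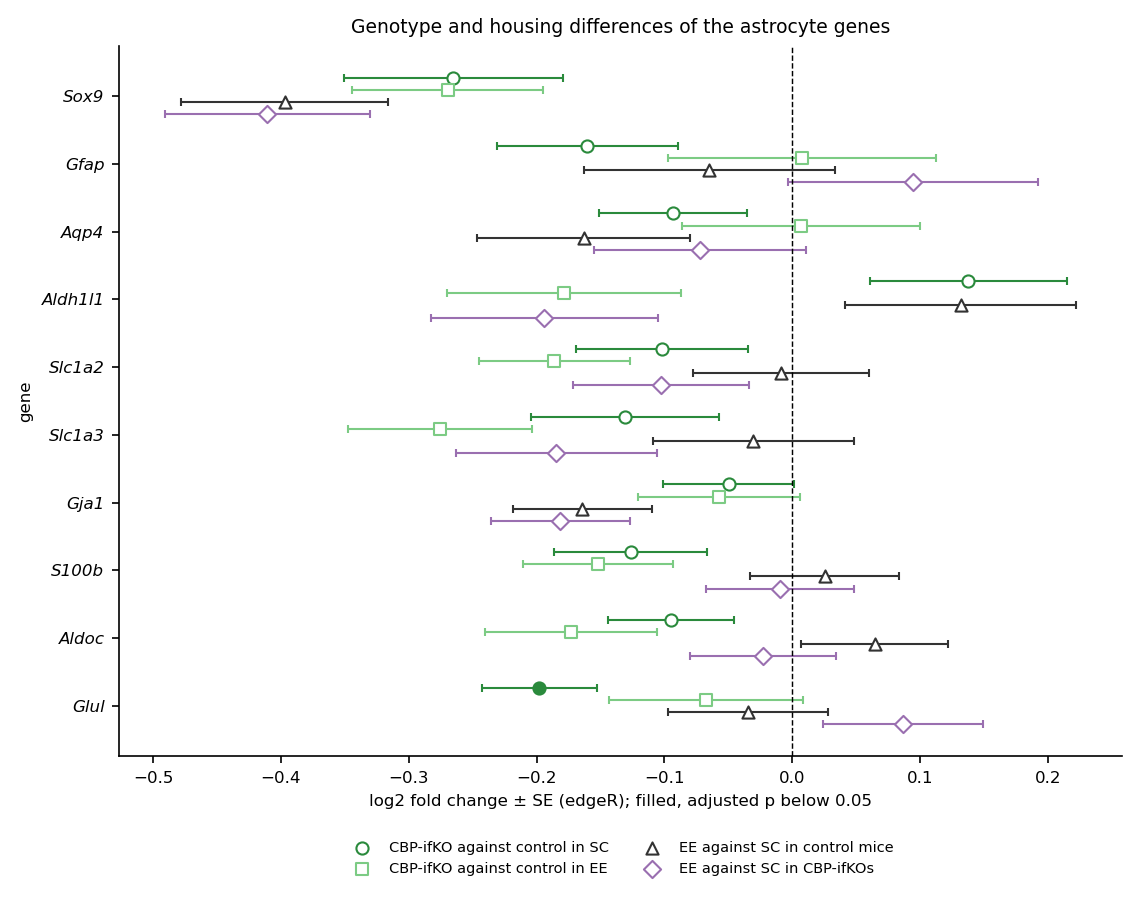
Log2 fold change ± SE (horizontal axis) of each of the 10 genes (vertical axis) between genotypes within SC and EE and between housings within control mice and CBP-ifKOs, 3 mice per group. A filled symbol has an adjusted p below 0.05 in edgeR's quasi-likelihood test, which only Glul in SC does (−0.20), while the housing values of Sox9 (−0.40 and −0.41) lie farthest from 0.

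Members differed in how they varied from mouse to mouse. Over the 12 mice, whose values share libraries and group differences, Pearson's r of log2 CPM was positive for 37 of 45 pairs of members, with a median of 0.28. The closest pairs were Slc1a2 with Slc1a3 (r = 0.89), Sox9 with Gja1 (0.89), Aqp4 with Gja1 (0.79), Sox9 with Slc1a3 (0.73), S100b with Slc1a2 (0.72) and Aldoc with Glul (0.71), while Gfap was nearest to Glul (0.60) and Aldh1l1 to Slc1a3 (0.62). After the group means were subtracted, 21 of 45 pairs were positive and the median was −0.03. Aqp4 with Gja1 (0.84), Slc1a2 with Slc1a3 (0.78) and Aldh1l1 with Slc1a3 (0.76) still varied together, and Gfap varied opposite to Slc1a2 (−0.78). Sox9 was then nearest to Slc1a2 (0.64). Of 18251 genes, those with the pattern most like Sox9 over the 12 mice were Ttc16 (r = 0.94), Pdk1 (0.94), Lypd1 (0.91), Slc8b1 (0.91) and Perm1 (0.90). Within groups they were Fgf2 (0.98), Cdc14b (0.95), Ttc16 (0.94), Nemp2 (0.93) and Ms4a7 (0.91). These are the highest of 18251 values over 12 mice and are descriptions.

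**Figure D3:**
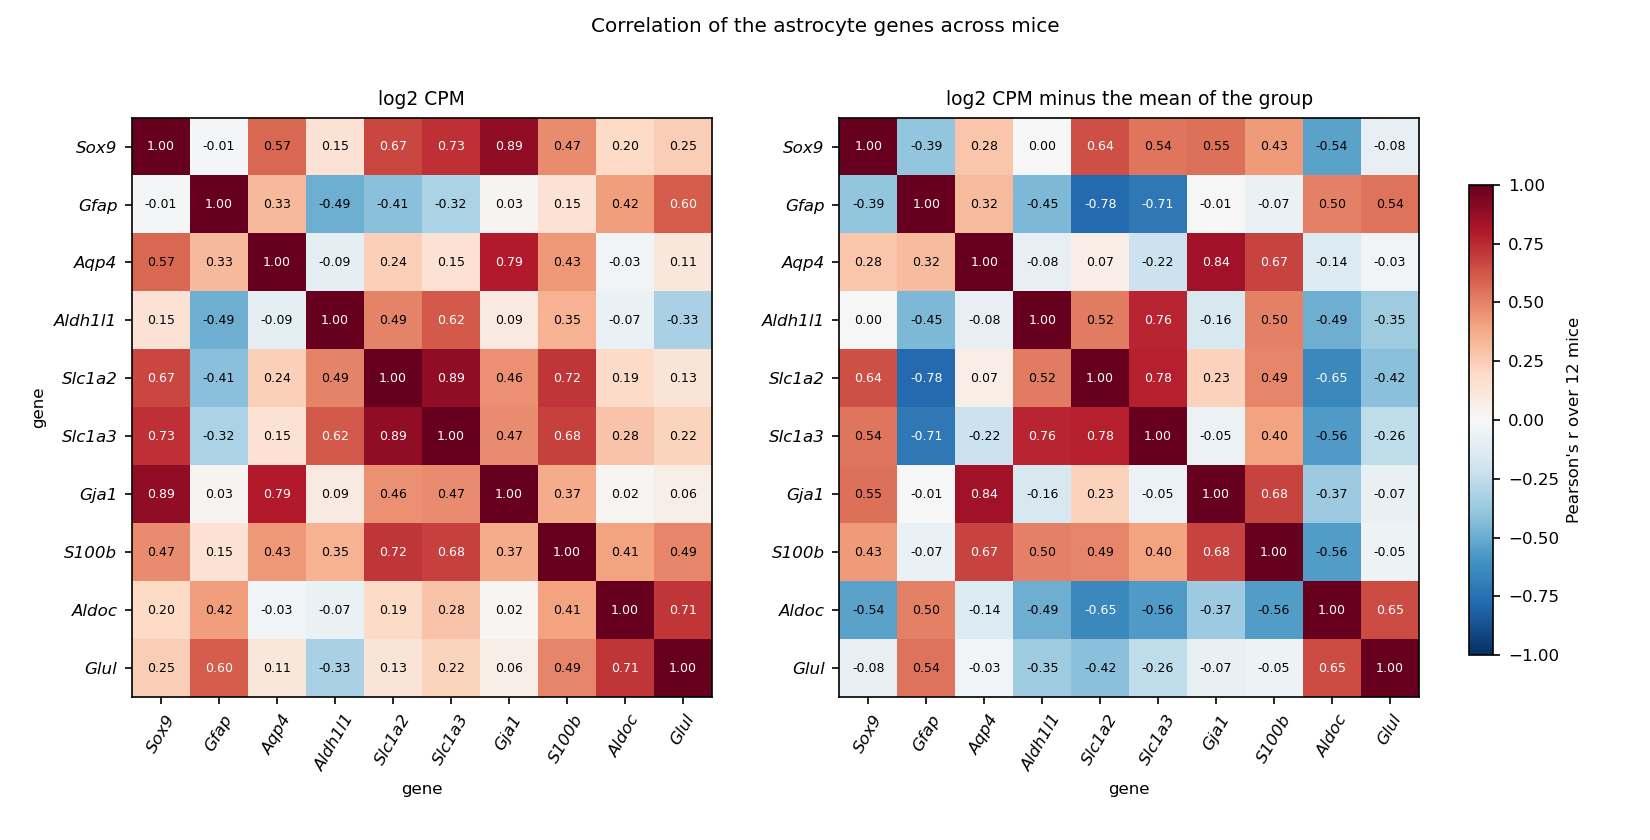
Pearson's r between the 10 genes over 12 mice for log2 CPM (left panel) and for log2 CPM minus the mean of the group (right panel), with genes on both axes and colour for r. The block of Slc1a2 and Slc1a3 keeps a high r in both panels (0.89 and 0.78), while r of Sox9 with Gja1 is 0.89 on the left and 0.55 on the right.

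The members were set beside 80 further astrocyte genes in 6 lists chosen by role, of which 78 were tested in SC and over both housings and 77 in EE. In SC, 1 was called higher and 9 lower in CBP-ifKOs, in EE 0 and 5, and over both housings, 1 and 18. Of all genes tested, 5.52% were called in SC (4.02% lower), 4.57% in EE and 16.9% over both housings (10.3% lower). Under the alternatives the total ranged from 1 to 14 in SC, from 3 to 19 in EE and from 14 to 29 over both housings. Transcription factors held the most calls in SC and over both housings, though not in EE, where 1 was called. In SC 5 of 14 were lower (Sox2, Nfia, Nfib, Id2 and Lhx2) and their median was −0.23, and over both housings 7 of 14 were lower, with Emx2 and Zbtb20 added and a median of −0.22. Without CBP-ifKO SC replicate 2, the total in SC fell from 10 to 1, these 5 calls were among those lost, and Serpina3n was the gene that remained. Nfib, a nuclear factor I protein of gliogenesis, was at 171 to 189 CPM in control SC mice, 136 to 153 in CBP-ifKO SC mice, 161 to 195 in control EE mice and 139 to 144 in CBP-ifKO EE mice. It was lower in CBP-ifKOs with no overlap in either housing (log2 fold change −0.35 ± 0.062 in SC, adjusted p = 0.00816, and −0.30 ± 0.072 in EE, adjusted p = 0.0404). Lhx2, Emx2, Nfib and Zbtb20 are expressed in hippocampal neurons as well as in astrocytes.

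Of the 10 genes for glutamate, GABA and amino acid handling, Slc38a3, a glutamine transporter, and Gldc, of the glycine cleavage system, were lower in EE (−0.34 ± 0.069, adjusted p = 0.0179, and −0.50 ± 0.083, adjusted p = 0.00717) and over both housings. Among 12 junction, water and ion genes only Dtna, a scaffold protein of the endfoot complex, was called, over both housings (−0.20 ± 0.046, adjusted p = 0.00873). The median of this list was −0.06 in SC and −0.05 in EE. Among 16 genes of metabolism and lipids, Fabp7 was lower in SC (−0.65 ± 0.12, adjusted p = 0.00960) and the glutathione transferase Gstm1 in EE (−0.37 ± 0.057, adjusted p = 0.00488), and Acsbg1, Gstm1, Apoe and Fabp7 over both. Among 16 receptors and secreted proteins, Htra1 and Btbd17 were lower in SC, Htra1 by 0.33 ± 0.060 on the log2 scale (adjusted p = 0.00880), and Gpc4 with them over both housings. Agt, the angiotensin precursor that astrocytes make in the brain, was the 1 gene called higher. It was at 16.1 to 22.1 CPM in control SC mice, 23.0 to 27.1 in CBP-ifKO SC mice, 13.5 to 20.8 in control EE mice and 20.2 to 30.7 in CBP-ifKO EE mice, and the groups overlapped in EE only. Its log2 fold change was 0.47 ± 0.12 in SC (adjusted p = 0.0362) and 0.57 ± 0.18 in EE (adjusted p = 0.108).

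Serpina3n, a protease inhibitor that rises in reactive astrocytes, was the astrocyte-list gene with the smallest p-value in both housings. It was at 48.4 to 64.0 CPM in control SC mice, 20.0 to 22.9 in CBP-ifKO SC mice, 55.8 to 64.3 in control EE mice and 25.3 to 33.1 in CBP-ifKO EE mice, with a wide gap in each housing. The log2 fold change was −1.32 ± 0.10 in SC (adjusted p = 4.32e-05) and −1.07 ± 0.10 in EE (adjusted p = 0.000334), and it was called under every alternative run. No other pan-reactive gene of the 10 tested in SC or 9 in EE was called, and the median of this list was −0.20 in SC and 0.21 in EE. For housing, the 78 genes gave 0 calls within either genotype, at an unadjusted p below 0.05 in 10 within controls (4.21% of all genes) and 14 within CBP-ifKOs (8.59% of all genes), and 1 over both genotypes. That gene was Nfia, at 81.0 to 87.8 CPM in control SC mice, 67.5 to 74.8 in CBP-ifKO SC mice, 68.9 to 74.8 in control EE mice and 60.7 to 63.7 in CBP-ifKO EE mice (−0.22 ± 0.040, adjusted p = 0.0414). It was called in 7 of 17 alternatives. Without control EE replicate 1 this call was lost, as were those of Sox2, Apoe and Htra1 between genotypes over both housings. The number of list genes called for housing ranged under the alternatives from 0 to 4 within controls, 0 to 5 within CBP-ifKOs and 0 to 8 over both genotypes. Each was highest with no filter on low counts.

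**Figure D4:**
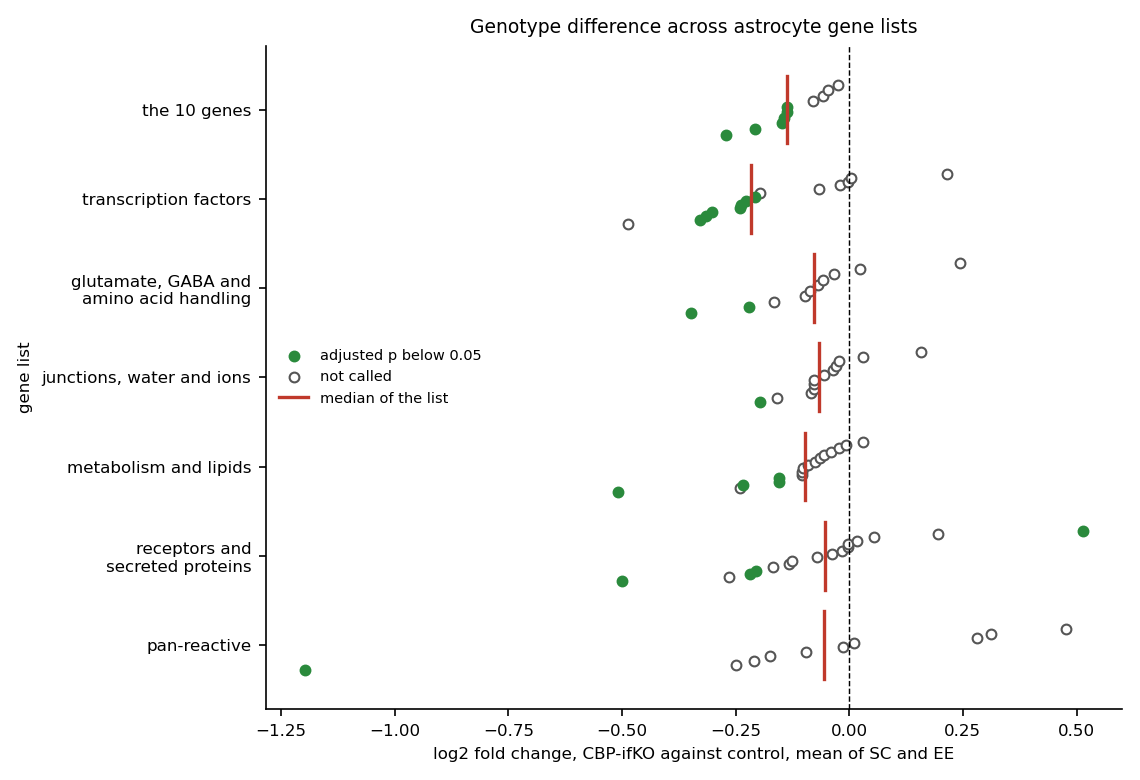
Log2 fold change of CBP-ifKOs against control mice as the mean of SC and EE (horizontal axis) for the 10 genes and the 6 further astrocyte lists (vertical axis). Each point is 1 gene, filled where its adjusted p is below 0.05, and the vertical bar is the median of the list, which is lowest for the transcription factors (−0.22). Serpina3n (−1.20) and Agt (0.51) lie farthest out.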

How the data were processed

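Total RNA of the hippocampus was sequenced by the authors on an Illumina HiSeq as single-end 50-base reads, with 2 runs per mouse. They trimmed with Trim Galore 0.6.4, aligned to mm10 with STAR 2.6.1, kept reads of mapping quality above 10 and counted exons with Rsubread and the Ensembl release 99 annotation. The file deposited by the authors holds raw counts, with both runs of a mouse merged according to its column names. Whether different runs were added in CBP-ifKOs, whose counts are all even, was not tested. Their own tests used DESeq2 1.30.1. The members and lists were chosen with earlier results of these data known.

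Here the counts were tested with edgeR 4.0.16 in R 4.3.3 (filterByExpr, TMM, quasi-likelihood F test, Benjamini-Hochberg adjustment over all genes, called at an adjusted p below 0.05). Genotype within SC or EE used those 6 mice. The other contrasts used 1 coefficient per group in all 12 mice, which share 1 estimate of the spread. Printed CPM are counts over the library total of the filtered genes times its TMM factor, and overlap of groups was judged on these values. Correlations used log2 CPM with a prior count of 2. The scripts were tested on simulated data. Alternatives were DESeq2 1.42.0, its size factors, no filter, a replicate block, halved CBP-ifKO counts, other mice in the fit and leaving out each mouse. All 10 members are named in every comparison, as are up to 3 higher and 3 lower called genes of the other astrocyte lists with the smallest p, the 5 genes most like Sox9, Crebbp and called markers of other cells. Other genes of the astrocyte lists were named after their values were seen, to identify counts. No 2 libraries of the same group agreed within counting noise. The mice are separate animals, but their litters and cages are not given, so p-values measure the spread between these mice. In the paper, mice shared cages and EE boxes. If the EE mice shared a box, housing and box cannot be told apart.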

Additional observations from a re-analysis of the deposited data

How the results depend on the processing

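Of 10 genes, the number called was recomputed under each alternative. Between genotypes in SC it was 1, and became 2 with no filter on low counts and 0 in the fit to all 12 mice. In EE it was 0, and became 2 with DESeq2, 3 with no filter, 1 with the replicate block and 1 in the fit to all 12 mice. EE against SC, at 0 within controls and within CBP-ifKOs, became 1 in each with DESeq2 and with no filter, and over both genotypes it went from 1 to 2 under these same alternatives. Leaving out 1 mouse gave 0 to 2 in SC, 0 to 1 in EE, 2 to 5 for genotype over both housings, 1 throughout for housing over both genotypes and 0 throughout for housing within either genotype and for the interaction. The replicate number was not a pairing by the labels: same-numbered controls of the housings deviated together with a mean r of 0.18, and other groups with −0.02 to 0.09. The replicate block kept 6 called for genotype over both housings, and apart from the call in EE changed no number of members called. With DESeq2's size factors genotype over both housings gave 5, without Glul (adjusted p = 0.0503). Halving the CBP-ifKO counts changed none of the 7 numbers.

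Over all genes, counts moved by more than 1.5 times as follows. Genotype in SC went from 968 to 1512 with no filter. In EE 805 became 1677 with no filter, 1262 with DESeq2 and 1293 in the fit to all 12 mice. Housing within controls went from 0 to 145 with no filter, 15 with DESeq2 and 1 with the 6 controls alone. Within CBP-ifKOs 2 became 247, 50, 17 with the replicate block, 21 with the 6 CBP-ifKOs alone and 0 with halved counts. Over both genotypes 30 became 334, 156 with DESeq2 and 48 with the block, and the interaction went from 0 to 110 with no filter. Leaving out 1 mouse gave 399 to 1908 genes for genotype in SC, 285 to 1016 in EE, 0 to 5 for housing in controls, 0 throughout in CBP-ifKOs and 7 to 42 over both genotypes.

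Of 990 recomputed differences of single members, 890 kept direction and side of the threshold, 37 lost their call, 16 gained one and 47 turned sign, all of these uncalled. In EE the genotype value of Aqp4 (0.01) turned to −0.00084 with DESeq2, −0.011 with no filter and −0.0017 in the fit to all 12 mice, and that of Gfap (0.01) to −0.010 with no filter and −0.00067 in the fit to all 12 mice. The other sign changes came with 1 mouse left out. For genotype in EE the values then spanned Gfap from −0.12 to 0.091 and Aqp4 from −0.079 to 0.083. For housing in controls they spanned Gfap from −0.14 to 0.060, Slc1a2 from −0.072 to 0.081, Slc1a3 from −0.11 to 0.075, S100b from −0.0052 to 0.078 and Glul from −0.070 to 0.019. For housing in CBP-ifKOs they spanned S100b from −0.052 to 0.018 and Aldoc from −0.049 to 0.022. For the interaction they spanned Sox9 from −0.10 to 0.044 and Gja1 from −0.059 to 0.025. For genotype over both housings they spanned Aldh1l1 from −0.077 to 0.014. For housing over both genotypes they spanned S100b from −0.013 to 0.035, Gfap from −0.024 to 0.078, Aldh1l1 from −0.070 to 0.021, Aldoc from −0.0023 to 0.048 and Glul from −0.014 to 0.054. The cause of these changes was not tested.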

Other observations

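Markers of the other cell types of the extract moved between genotypes to different degrees over both housings (edgeR, 12 mice), where 16.9% of 18251 genes were called and 10.3% were called lower. The oligodendrocyte precursor genes Pdgfra (a growth factor receptor), Cspg4 (a surface proteoglycan) and Gpr17 (an orphan receptor) were all lower in CBP-ifKOs, by 0.26 ± 0.064, 0.33 ± 0.079 and 0.33 ± 0.064 on the log2 scale (adjusted p = 0.0117, 0.00869 and 0.00241). Their summed level was 122 to 142 CPM in control SC mice, 96.2 to 109.6 in CBP-ifKO SC mice, 124 to 132 in control EE mice and 102 to 113 in CBP-ifKO EE mice, with no overlap between the genotypes in either housing. The median of 8 oligodendrocyte genes was −0.002 and none was called. Of 6 interneuron genes, the neuropeptide gene Sst was lower (log2 fold change −0.33 ± 0.068, adjusted p = 0.00322) and Vip higher (0.21 ± 0.065, adjusted p = 0.0361).

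Of 7 microglia genes, the fractalkine receptor Cx3cr1 (−0.17 ± 0.045, adjusted p = 0.0170) and the growth factor receptor Csf1r (−0.12 ± 0.036, adjusted p = 0.0356) were lower in CBP-ifKOs, and of 6 endothelial genes the VEGF receptor gene Kdr was (−0.31 ± 0.071, adjusted p = 0.00640). Of 7 genes of neural stem and progenitor cells, Mki67, a gene of dividing cells, and Sox11, a transcription factor of newborn neurons, were lower (−0.61 ± 0.19, adjusted p = 0.0380, and −0.33 ± 0.058, adjusted p = 0.00111). Of 7 choroid plexus genes tested, 1 was called, Ttr, which had −2.99 ± 0.88 (adjusted p = 0.0283), a value that holds the control EE mouse whose choroid plexus level stood apart, and −1.70 ± 0.12 in SC, where that mouse is absent (adjusted p = 2.20e-05). In SC, Kl, also on the choroid plexus list, was at 23.9 ± 1.84 CPM in controls and 27.8 ± 1.63 in CBP-ifKOs (SD, n = 3), with no overlap and in the other direction, and did not pass (log2 fold change 0.22 ± 0.080, adjusted p = 0.141). Apart from Ttr, the highest other gene of this list in control SC mice was Clic6 at 2.07 ± 0.865 CPM. Whether Kl in these samples came from the choroid plexus was not tested. None of 5 ependymal genes was called.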
